A study of Mus musculus with 2 samples.

Results

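The genes described here encode 7 CXC chemokines, Cxcl1, Cxcl2, Cxcl10, Cxcl12, Cxcl14, Cxcl16 and Pf4, and 3 of their receptors, Cxcr2, Cxcr4 and Ackr3. They were taken by symbol, and all 10 were found among the 31053 genes of the matrices. Their messenger RNA was counted cell by cell in mouse spinal cord, 5 days after an injury to the cord. There was 1 library from cord treated with HDAC3i, an inhibitor of the histone deacetylase HDAC3, and 1 library from cord treated with vehicle. The labels give no compound name, dose, strain, age or number of animals, and the titles of both libraries hold the same date. Injury and tissue were common to both libraries, and no uninjured cord was analysed here.

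CXC chemokines are small secreted or membrane-bound proteins that guide migrating cells through G protein-coupled receptors. Cxcl1 and Cxcl2 act on Cxcr2 and draw neutrophils, and Cxcl10, induced by interferon, acts on Cxcr3 of T and NK cells. Cxcl12 acts on Cxcr4 and is taken up by the scavenger receptor Ackr3. Cxcl16 is made as a membrane protein that is shed by proteases and binds Cxcr6, and Pf4, known from platelet granules, is also made by macrophages. Cxcl14 is a chemokine of epithelia and macrophages.

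The HDAC3i library held 3423 barcodes and 38957752 UMIs, against 2523 barcodes and 29726813 UMIs in the vehicle library. After filtering, 2954 HDAC3i cells with a median of 9701.5 UMIs and 2164 vehicle cells with a median of 10245 UMIs remained. Only 4 kept barcodes were shared by the libraries, 1 of them in the same class in both. Clusters were named from marker lists without any CXC gene, which gave 14 classes, and 12 of these held at least 20 cells in HDAC3i and in vehicle alike. All 10 microglia markers, all 12 endothelial markers and all 13 neutrophil markers reached at least 20 CPM in their classes in both libraries. CPM is a count scaled to a class total of 1000000 UMIs. With 1 library per group there is no replicate check and no test, so libraries are compared and not treatments, and every interval is a 95% interval of counting error only.

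Each chemokine had a restricted set of sources, and these were the same in both libraries for nearly all genes. Among the 12 classes compared, the class with the highest level was the same in both libraries for 9 of the 10 genes. This ranking left out unnamed clusters, T/NK cell-like cells (51 in HDAC3i, 14 in vehicle) and astrocyte-like cells (29 and 15). Some of these stood above the compared classes in at least 1 library, for Cxcl10, Cxcl14 and Cxcr4, as given below. The exception was Cxcl1, highest in fibroblast-like cells in the HDAC3i library and in mural cell-like cells in the vehicle library. Ratios are HDAC3i over vehicle, and a ratio was counted as past the fold when it was at least 1.5 in either direction and its interval left out 1. Of 120 pairs of gene and class, 54 had at least 20 UMIs, and 21 of these were past the fold, 13 higher and 8 lower in the HDAC3i library. Over all genes and the same 12 classes, 5.74% of pairs were past it. Of 110 pairs of classes next to each other in the order of a gene's level, 73 had overlapping ranges of both libraries, most of them low in the order. Higher in the order they overlapped, for example, for Cxcl1 among fibroblast-like, border-associated macrophage-like and mural cell-like cells. They also overlapped for Cxcl10 between endothelial cell-like and border-associated macrophage-like cells, for Cxcl14 among border-associated macrophage-like, microglia-like and Schwann cell-like cells, and for Cxcr4 between border-associated macrophage-like and B lineage-like cells.

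**Figure D1:**
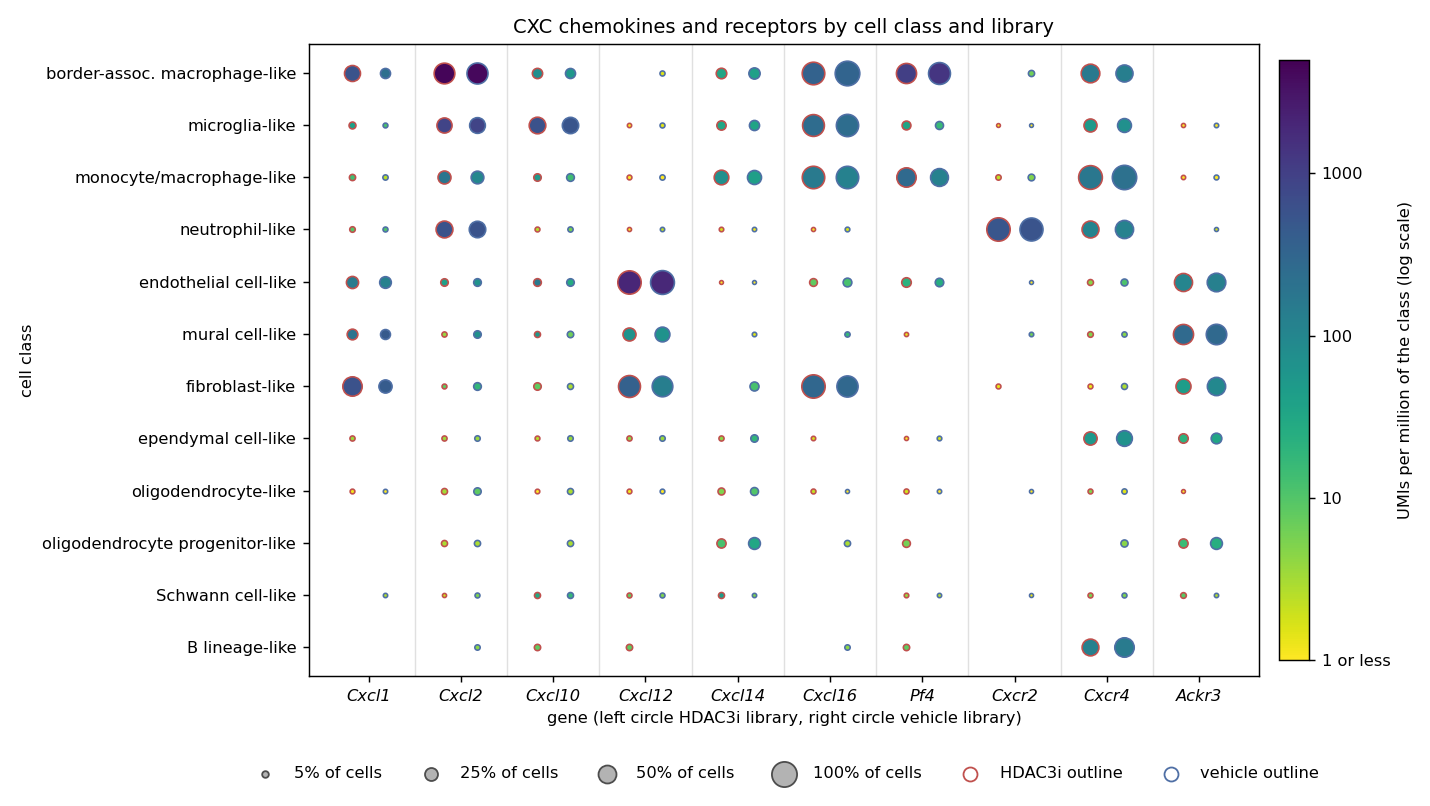
Level and spread of each chemokine and receptor over the 12 cell classes compared. Circle area follows the percentage of cells with at least 1 UMI, colour gives the CPM of the class on a log scale, and the left circle of each pair is the HDAC3i library and the right one the vehicle library; left and right circles look alike for most genes, and Cxcl12, Cxcr2 and Cxcl10 each have 1 dominant class.

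Cxcl1 and Cxcl2, the ligands of Cxcr2, lie near each other on mouse chromosome 5 (mm10; Cxcl1 from 90891241 to 90893115 and Cxcl2 from 90903871 to 90905938, both on the plus strand). The 250 bases before their annotated starts, from RefSeq on GRCm38.p6, are shown because each holds the same run of letters. Capitals mark matches of the NF-kappaB consensus, which in both genes is a pair of overlapping matches, 1 on each strand, first base at position -71 and -70 in Cxcl1 and at -97 and -96 in Cxcl2. The windows are chr5:90890995-90891244 and chr5:90903649-90903898, both on the plus strand. Such a match was found in 3.90% of 32851 windows of the same length, both strands searched.
Cxcl1: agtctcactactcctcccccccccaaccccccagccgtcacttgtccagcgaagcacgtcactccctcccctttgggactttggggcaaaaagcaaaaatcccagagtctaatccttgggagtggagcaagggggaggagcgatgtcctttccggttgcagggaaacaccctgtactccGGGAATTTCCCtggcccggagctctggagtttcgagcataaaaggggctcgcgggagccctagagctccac
Cxcl2: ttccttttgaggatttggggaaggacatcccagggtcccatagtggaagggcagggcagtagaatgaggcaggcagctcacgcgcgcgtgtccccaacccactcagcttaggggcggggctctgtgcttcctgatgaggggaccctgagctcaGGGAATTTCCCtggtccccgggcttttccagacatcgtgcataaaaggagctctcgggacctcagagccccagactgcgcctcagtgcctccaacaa

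Cxcl1 came from stromal, vascular and border-associated macrophage-like cells, the macrophages of meninges and vessels. In fibroblast-like cells it stood at 588 CPM in the HDAC3i library and 437 CPM in the vehicle library, with UMIs in 58.6% and 25.9% of cells. A single vehicle cell held 126 of the 148 UMIs there, or 85.1%. Without the richest cell of each library the levels were 498 CPM in the HDAC3i library and 70.4 CPM in the vehicle library, a ratio of 7.07 (4.60 to 11.4) in place of 1.35 (1.11 to 1.63). So in HDAC3i fibroblast-like cells Cxcl1 was spread over many cells, and in vehicle ones it sat almost in 1 cell. That cell had 895 UMIs of fibroblast markers.

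Border-associated macrophage-like cells had 570.3 CPM of Cxcl1 in the HDAC3i library and 232 CPM in the vehicle library, a ratio of 2.46 (2.05 to 2.97), with UMIs in 39.3% and 14.3% of cells. This difference did not rest on 1 cell, since the ratio was 3.0 (2.43 to 3.72) without the richest cell of each library. These cells were 107 in the HDAC3i library and 49 in the vehicle library, and the antigen presentation genes Cd74, H2-Aa, H2-Eb1 and H2-Ab1 led their cluster. By each cell's own markers only 77 of them kept the class, 53 were monocyte/macrophage-like and 13 microglia-like. With classes from own markers Cxcl1 stood at 1110 CPM in HDAC3i and 615 CPM in vehicle, a ratio of 1.81 (1.5 to 2.19), so the level of this class depended on how its cells were chosen. The summed erythroid markers in the class were 37.7 CPM in the HDAC3i library and 2914 CPM in the vehicle library, with 4 and 2 of 8 at 0. The summed neutrophil markers were 169 and 1383 CPM, with 3 and 0 of 13 at 0. The part of these markers in the result was not tested.

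In mural cell-like cells, the pericytes and smooth muscle of vessels, the direction was the other way over the whole class. Cxcl1 stood at 189.6 CPM in the HDAC3i library and 465 CPM in the vehicle library, a ratio of 0.408 (0.333 to 0.498). A single vehicle cell with 361 mural marker UMIs held 173 of the UMIs, or 58.4%. Without the richest cell of each library the levels were 129 and 197 CPM, a ratio of 0.653 (0.497 to 0.858), and similar shares of cells had a UMI, 16.4% in HDAC3i and 13.8% in vehicle. The mural difference thus rested to a large degree on that cell. Its clusters also went opposite ways. The cluster led by Vtn and Rgs5, genes of pericytes, had 262 CPM in HDAC3i and 777 CPM in vehicle, a ratio of 0.338 (0.271 to 0.419). The same vehicle cell lay in this cluster and held 173 of its 286 vehicle UMIs, so this ratio rested largely on it as well. The cluster led by Acta2 and Tagln, genes of smooth muscle, had 27 and 10 UMIs, a ratio of 2.26 (1.06 to 5.23).

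Endothelial cell-like cells had 149.6 CPM of Cxcl1 in the HDAC3i library and 124 CPM in the vehicle library, a ratio of 1.21 (1.07 to 1.36) that did not reach the fold. Microglia-like cells had little Cxcl1, 40.6 CPM from 26 of 463 HDAC3i cells and 11.5 CPM from 8 of 483 vehicle cells, a ratio of 3.52 (2.70 to 4.63). Monocyte/macrophage-like cells had 13.7 CPM from 23 HDAC3i cells and 2.40 CPM from 7 vehicle cells, a ratio of 5.70 (3.54 to 9.70). In both myeloid classes the gene was thus on in a small minority of cells. A single vehicle cell held 42 UMIs, or 55.3%, of the vehicle microglia-like class, and the ratio was 6.52 (4.50 to 9.70) without the richest cells. In the monocyte/macrophage-like class a vehicle cell held 11 of the 19 vehicle UMIs, and the ratio was 9.65 (4.75 to 22.8) without the richest cells. The richest HDAC3i cell of that class held 51 UMIs, 28.8% of them all, and was microglia-like by its own markers. Oligodendrocyte-like cells, which should lack the gene, had a UMI in 1.52% of HDAC3i cells and 0.957% of vehicle cells, at medians of 10920 and 14758 UMIs per cell. The shares in microglia-like cells were 5.62% and 1.66%, at medians of 10567 and 11998 UMIs, so the vehicle share was near this background.

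Cxcl2 was a myeloid gene in both libraries. Border-associated macrophage-like cells had 4497 CPM in the HDAC3i library and 4211 CPM in the vehicle library, a ratio of 1.07 (1.02 to 1.12), with UMIs in 67.3% and 69.4% of cells. Microglia-like cells followed with 892 CPM in the HDAC3i library and 905 CPM in the vehicle library, a ratio of 0.985 (0.949 to 1.02). Neutrophil-like cells had 556 CPM in the HDAC3i library and 574 CPM in the vehicle library, a ratio of 0.969 (0.876 to 1.07). The 3 classes with most Cxcl2 therefore differed by less than 1.5-fold, and these 3 levels did not overlap each other within either library. The order of the microglia-like and neutrophil-like levels turned with each cell weighted alike, at 599 CPM in HDAC3i and 589 CPM in vehicle in microglia-like cells, against 1040 and 997 CPM in neutrophil-like cells. With classes from own markers the border-associated macrophage-like level was 8473 CPM in HDAC3i and 8231 CPM in vehicle. Oligodendrocyte-like cells had a UMI of Cxcl2 in 3.81% of HDAC3i cells and 6.70% of vehicle cells, far below the 35% and 37.9% of microglia-like cells.

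Cxcl2 was higher in the HDAC3i library in monocyte/macrophage-like cells, at 182 CPM against 98.4 CPM in vehicle, a ratio of 1.85 (1.71 to 2.01). The share of cells with a UMI was much the same, 25.1% in HDAC3i and 24.0% in vehicle, and the ratio was 1.88 (1.72 to 2.05) without the richest cells. The richest 5% of cells held 78.3% of the UMIs in HDAC3i and 71.2% in vehicle, so a small set of cells carried the level. The ratio fell short of the fold with classes from own markers (1.48), with each cell weighted alike (1.48) and without the richest 5% of cells (1.4). It was 2.23 (2.03 to 2.44) in the largest cluster and 1.0 (0.781 to 1.29) in another. Cxcl2 was lower in the HDAC3i library in mural cell-like cells, with 3 UMIs against 45, a ratio of 0.054 (0.0107 to 0.168). These UMIs stood in 3 of 134 HDAC3i cells and 6 of 87 vehicle cells. Such cells were also few in the oligodendrocyte-like class, 15 of 394 and 14 of 209. Without the richest cell of each library the mural levels were 2.56 CPM in HDAC3i and 39.9 CPM in vehicle. Without the richest 5% of cells they were 0 and 1.80 CPM. The summed neutrophil markers of the mural cell-like class were 349 CPM in the HDAC3i library and 1086 CPM in the vehicle library, with 4 and 1 of 13 at 0, and their part was not tested. In oligodendrocyte-like cells the 16 HDAC3i UMIs and 28 vehicle UMIs gave a ratio of 0.388 (0.196 to 0.742), but a single vehicle cell held 15 of them, and the ratio was 0.729 (0.318 to 1.69) without the richest cells.

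Endothelial cell-like cells had 41.3 CPM of Cxcl2 in the HDAC3i library and 62.4 CPM in the vehicle library, a ratio of 0.661 (0.543 to 0.805), and their clusters went opposite ways. The larger cluster, rich in venous markers, had 43.2 CPM in HDAC3i and 85.6 CPM in vehicle, a ratio of 0.504 (0.403 to 0.629). The smaller cluster, rich in arterial markers, had 61 UMIs in HDAC3i and 6 in vehicle, a ratio of 6.79 (2.95 to 19.2). The richest 5% of endothelial cell-like cells held 95.8% of the UMIs in HDAC3i and 97.0% in vehicle. Each cluster's value thus came from few cells, and over both clusters the ratio was 0.757 (0.608 to 0.942) without the richest cells, short of the fold.

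In some classes cells with Cxcl1 often had Cxcl2 as well. In microglia-like cells Cxcl2 was found in 84.6% of HDAC3i cells with Cxcl1 (22 of 26), against 32.0% of those without, and in 75.0% (6 of 8) against 37.3% in vehicle. In border-associated macrophage-like cells the shares were 90.5% (38 of 42) against 52.3% in HDAC3i and 100% (7 of 7) against 64.3% in vehicle. In endothelial cell-like cells they were 20.9% against 3.06% in HDAC3i and 27.4% against 2.40% in vehicle. Cxcl2 was thus found more often in cells with Cxcl1 than in the others of these classes. Microglia-like cells with Cxcl1 were deeper, with medians of 17537 UMIs in HDAC3i and 18225.5 in vehicle, against 10364 and 11996 in those without. The endothelial cell-like cells were likewise deeper, whereas border-associated macrophage-like cells with Cxcl1 were shallower, at 8676 UMIs against 9967 in HDAC3i. Fibroblast-like cells, rich in Cxcl1, had hardly any Cxcl2, found in 1 of 34 HDAC3i cells and 1 of 7 vehicle cells with Cxcl1. Of mural cell-like cells with Cxcl1, 0 of 22 in HDAC3i and 3 of 12 in vehicle had Cxcl2.

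**Figure D2:**
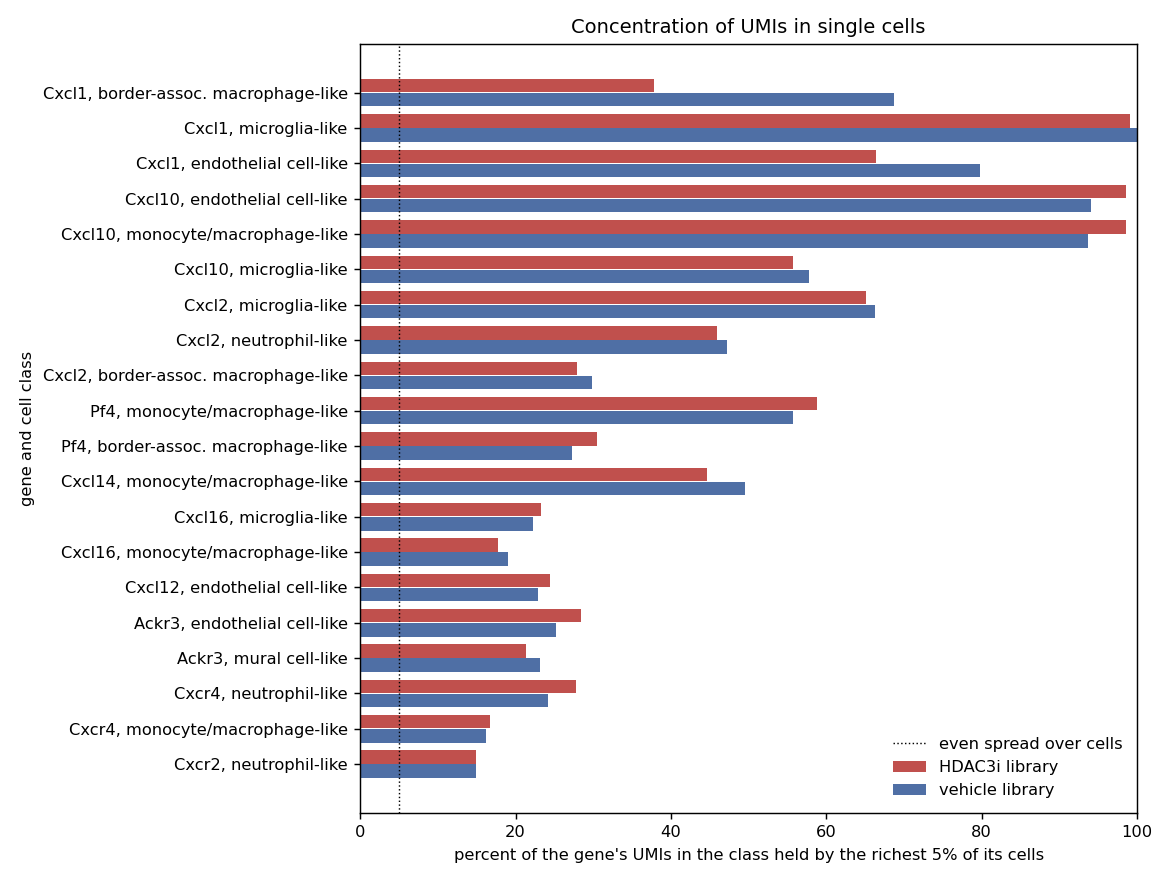
Percentage of a gene's UMIs in a class that the richest 5% of its cells held, with the HDAC3i library above the vehicle library in each pair of bars; the dotted line marks an even spread. Cxcl1 in microglia-like cells and Cxcl10 in endothelial cell-like and monocyte/macrophage-like cells sit near 100%, whereas Cxcr2, Cxcr4, Ackr3, Cxcl12 and Cxcl16 sit below 30%.

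Cxcl10 lies on chromosome 5 as well, on the minus strand (92346638 to 92348889). The 250 bases before its start, chr5:92348890-92349139 on the minus strand, are shown because they hold matches of the interferon element, GAAANNGAA, at -213, and of the NF-kappaB consensus, at -159 and -103. Capitals mark these matches, which do not overlap each other. The interferon element was found in 7.13% of all such windows, both strands searched.
Cxcl10: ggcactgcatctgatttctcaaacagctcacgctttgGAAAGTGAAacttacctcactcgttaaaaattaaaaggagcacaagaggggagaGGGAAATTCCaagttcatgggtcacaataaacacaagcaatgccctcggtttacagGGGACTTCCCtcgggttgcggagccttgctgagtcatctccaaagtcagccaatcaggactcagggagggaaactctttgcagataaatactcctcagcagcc

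Among the named classes microglia-like cells were the main source of Cxcl10, holding 59.6% of its UMIs in the HDAC3i library and 80.8% in the vehicle library. Their level was 593 CPM in the HDAC3i library and 521 CPM in the vehicle library, a ratio of 1.14 (1.08 to 1.20), and 42.5% and 41.0% of cells had a UMI. Even here the gene was uneven among cells, since the richest 5% held 55.7% of the UMIs in HDAC3i and 57.7% in vehicle. The larger microglia-like cluster had 707 CPM in HDAC3i and 625 CPM in vehicle, against 67.9 and 68.4 CPM in the smaller one. Oligodendrocyte-like cells had a UMI in 1.27% of HDAC3i cells and 3.83% of vehicle cells. An unnamed cluster with cycling genes and the complement genes C1qa and C1qc had 405 CPM of Cxcl10 in HDAC3i, from 48 cells, and 810 CPM in vehicle, from 31 cells, a ratio of 0.5 (0.441 to 0.566). In it Cxcl10 was thus lower in the HDAC3i library, although 1 cell held 35.2% of its UMIs in HDAC3i and 34.5% in vehicle.

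Outside microglia-like cells and that cluster, the higher levels of Cxcl10 in the HDAC3i library came from few cells. Endothelial cell-like cells had 156 CPM in the HDAC3i library and 27.4 CPM in the vehicle library, a ratio of 5.69 (4.62 to 7.07), but a single HDAC3i cell held 558 of the 715 UMIs, or 78.0%. That cell held 42442 UMIs in all, 5.66 times the median of its class, with 559 UMIs of endothelial markers, 134 of neutrophil markers and 56 of microglia markers. Without the richest cell of each library the levels were 34.6 CPM in HDAC3i and 20.8 CPM in vehicle, a ratio of 1.66 (1.26 to 2.22). The share of endothelial cell-like cells with a UMI was 7.42% in HDAC3i and 7.05% in vehicle.

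Mural cell-like cells had 54.7 CPM of Cxcl10 in the HDAC3i library and 6.28 CPM in the vehicle library, a ratio of 8.71 (3.17 to 33.4), with 39 of 43 HDAC3i UMIs in 1 cell. Without the richest cells the ratio was 1.09 (0.184 to 7.42). In monocyte/macrophage-like cells Cxcl10 stood at 53.5 CPM in the HDAC3i library and 14.2 CPM in the vehicle library, a ratio of 3.78 (3.09 to 4.65), again with like shares of cells, 6.87% and 7.53%. The ratio was 3.59 (2.81 to 4.63) without the richest cells. Without the richest 5% of cells, which took most of the cells with a UMI, it was 0.871 (0.299 to 2.70), too wide to give a direction.

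**Figure D3:**
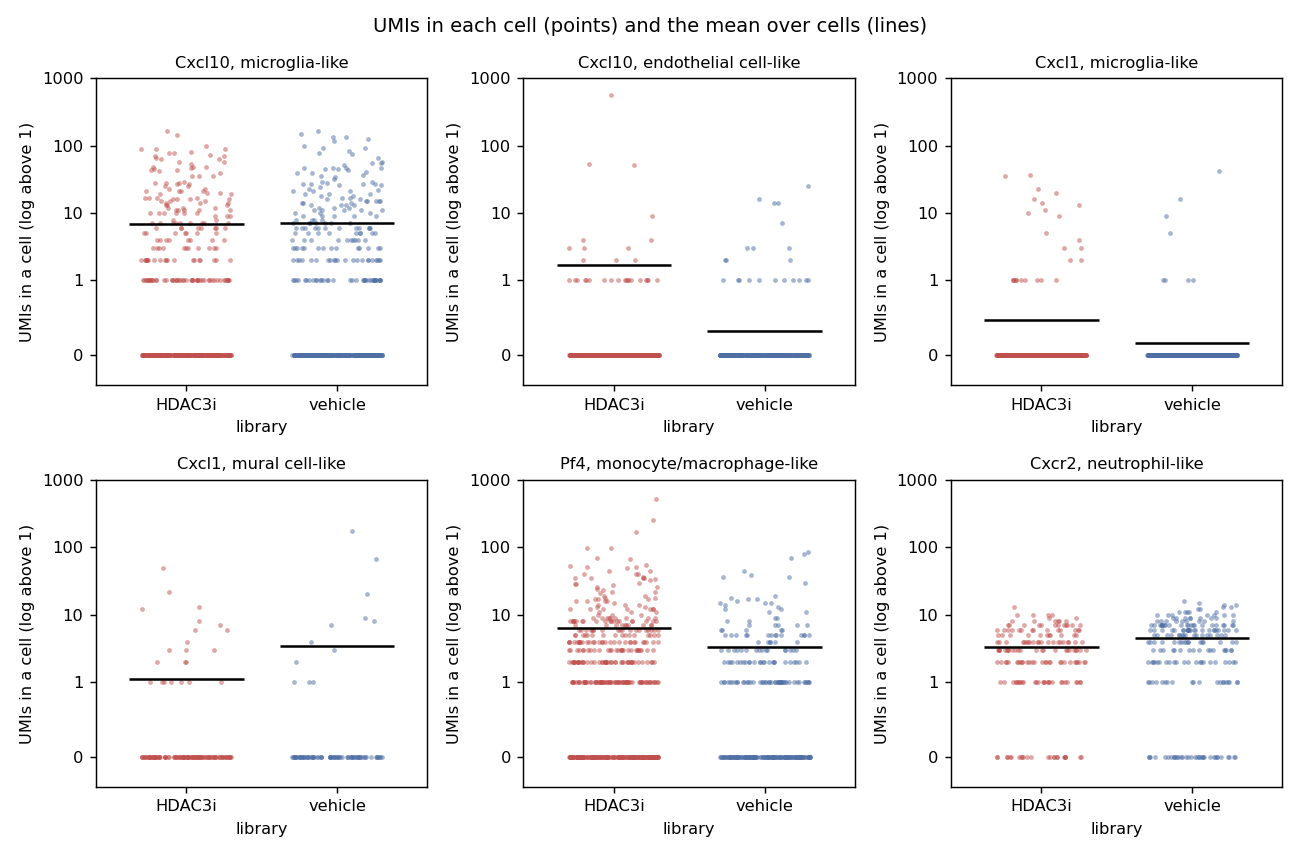
UMIs of a gene in each cell (points, log axis above 1) with the mean over cells (lines), for 6 pairs of gene and class, the HDAC3i library left of the vehicle library. Cxcl10 in endothelial cell-like cells has 1 HDAC3i point at 558 UMIs and Cxcl1 in mural cell-like cells 1 vehicle point at 173 UMIs, whereas the clouds of Cxcr2 in neutrophil-like cells are compact.

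Cxcl12, which retains and guides leukocytes and progenitors, came mainly from endothelial cell-like cells (gene on chromosome 6, 117168535 to 117181367, plus strand). These held 72.8% of its UMIs in the HDAC3i library and 80.2% in the vehicle library. Their level was 2013 CPM in HDAC3i and 1956 CPM in vehicle, a ratio of 1.03 (0.998 to 1.06), with UMIs in 86.4% and 89.7% of cells. T/NK cell-like cells had 38 of 39 HDAC3i UMIs and 27 of 28 vehicle UMIs in 1 cell each. Neutrophil-like cells, which should lack Cxcl12, had a UMI in 0.568% of HDAC3i cells and 0.939% of vehicle cells, at medians of 4076.5 and 6802 UMIs. The gene was thus widely spread over endothelium and close between libraries.

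Within the endothelium Cxcl12 was higher in the cluster rich in arterial markers, at 3052 CPM in HDAC3i and 3170.0 CPM in vehicle. The larger, venous/capillary cluster had 1447 CPM in HDAC3i and 1459.8 CPM in vehicle. The arterial markers summed to 1277 and 1315 CPM in the arterial cluster, against 86.0 and 101 CPM in the venous/capillary one. The order of the clusters was thus the same in both libraries. An unnamed cluster with erythroid and endothelial markers had 1498 CPM of Cxcl12 in HDAC3i and 1684 CPM in vehicle.

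Fibroblast-like cells were the next source of Cxcl12 and the place where the libraries differed. Their level was 373 CPM in the HDAC3i library and 136 CPM in the vehicle library, a ratio of 2.74 (2.0 to 3.83), from 58 and 27 cells. Without the richest cells it was 2.83 (1.98 to 4.17), and 75.9% of HDAC3i and 66.7% of vehicle cells had a UMI. Mural cell markers in that class summed to 1474 CPM in HDAC3i and 763 CPM in vehicle, with 3 and 3 of 12 at 0, and their part was not tested. Mural cell-like cells had 66.2 CPM of Cxcl12 in HDAC3i and 67.5 CPM in vehicle, a ratio of 0.980 (0.642 to 1.5).

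**Figure D4:**
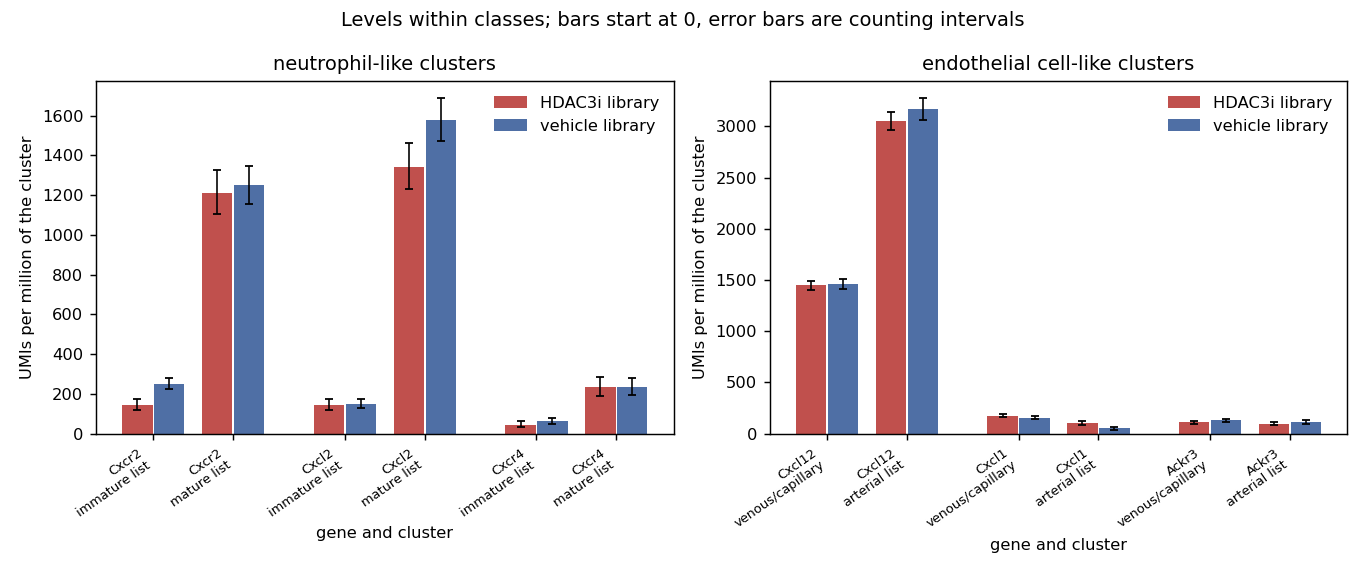
Levels in the neutrophil-like and endothelial cell-like clusters, as CPM of the cluster with 95% counting intervals, the HDAC3i library left of the vehicle library. Cxcr2, Cxcl2 and Cxcr4 are higher in the cluster rich in mature neutrophil markers, and Cxcl12 is higher in the cluster rich in arterial markers, in both libraries.

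Cxcl14 (chromosome 13, 56288643 to 56296551, minus strand) was found in myeloid cells and in astrocyte-like cells. In monocyte/macrophage-like cells it stood at 73.1 CPM in the HDAC3i library and 42.1 CPM in the vehicle library, a ratio of 1.73 (1.53 to 1.97), with UMIs in 32.5% and 29.8% of cells. The ratio was 1.81 (1.59 to 2.06) without the richest cells, so no single cell set it, but with classes from own markers it fell short of the fold, at 71.3 CPM in HDAC3i and 48.9 CPM in vehicle, a ratio of 1.46 (1.30 to 1.64). Microglia-like cells had 32.4 CPM in HDAC3i and 34.7 CPM in vehicle, a ratio of 0.933 (0.761 to 1.14). Astrocyte-like cells had 272 CPM (203 to 358) in the HDAC3i library, from 29 cells, and 253 CPM (154 to 390) in the vehicle library, from 15 cells, too few for a comparison. Neutrophil-like cells, which should lack it, had a UMI in 1.14% of HDAC3i cells and 0.939% of vehicle cells.

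In glia the ratios of Cxcl14 rested on few UMIs. Schwann cell-like cells had 25 UMIs in the HDAC3i library and 4 in the vehicle library, a ratio of 8.65 (2.99 to 34.2). A single HDAC3i cell held 13 of the 25 UMIs, and it had 375 UMIs of monocyte/macrophage markers and 32 of Schwann cell markers. A vehicle cell held 3 of the 4 vehicle UMIs, and without both richest cells the ratio was 17.0 (2.52 to 728), so its size is hardly known. Oligodendrocyte-like cells had 26 UMIs in HDAC3i and 34 in vehicle, a ratio of 0.519 (0.299 to 0.891). Neither class had Cxcl14 in more than 8.13% of cells of a library. The summed monocyte/macrophage markers in Schwann cell-like cells were 4153 CPM in HDAC3i and 2465 CPM in vehicle, with 5 and 5 of 14 at 0, and their part was not tested.

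Cxcl16 (chromosome 11, 70453983 to 70459984, minus strand) was widely spread over microglia-like and macrophage-like cells, and it did not reach the fold in any class with at least 20 UMIs. Neutrophil-like cells had 1 UMI in HDAC3i and 3 in vehicle. Under 20 UMIs, mural cell-like cells had 0 UMIs in HDAC3i and 11 in vehicle, and oligodendrocyte-like cells 11 and 1. Border-associated macrophage-like cells had 351 CPM in the HDAC3i library and 328 CPM in the vehicle library, a ratio of 1.07 (0.902 to 1.27). Microglia-like cells had 253 CPM in HDAC3i and 249.7 CPM in vehicle, a ratio of 1.01 (0.943 to 1.09), with UMIs in 74.9% and 78.1% of cells. Fibroblast-like cells had 300.3 CPM in HDAC3i and 296 CPM in vehicle, a ratio of 1.02 (0.799 to 1.30). Monocyte/macrophage-like cells had 152 CPM in HDAC3i and 123 CPM in vehicle, a ratio of 1.24 (1.14 to 1.34). Oligodendrocyte-like cells had a UMI in 1.78% of HDAC3i cells and 0.478% of vehicle cells. Adam10, the main protease that sheds Cxcl16, was at 127 CPM in HDAC3i and 119.9 CPM in vehicle in microglia-like cells, and at 69.9 and 74.9 CPM in monocyte/macrophage-like cells.

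Pf4 (chromosome 5, 90772435 to 90773383, plus strand) was a macrophage gene here. Border-associated macrophage-like cells had 1029 CPM in the HDAC3i library and 1354 CPM in the vehicle library, a ratio of 0.760 (0.696 to 0.831) that did not reach the fold, and 2255 and 3052 CPM with classes from own markers. In monocyte/macrophage-like cells it was higher in the HDAC3i library, at 276 CPM against 122 CPM in vehicle, a ratio of 2.27 (2.12 to 2.44). UMIs were found in 58.6% of these HDAC3i cells and 49.3% of the vehicle cells. A single HDAC3i cell, with 2214 UMIs of its own class's markers, held 516 UMIs, or 14.4%, and the ratio was 2.13 (1.97 to 2.30) without the richest cells. Oligodendrocyte-like cells had a UMI in 2.03% of HDAC3i cells and 0.957% of vehicle cells.

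Marker lists of platelets and of border-associated macrophages stood close between the libraries in the same class. The 9 megakaryocyte or platelet markers summed to 3.72 CPM in HDAC3i and 4.81 CPM in vehicle, with 5 and 4 of 9 at 0. The 10 border-associated macrophage markers summed to 1011 CPM in HDAC3i and 929 CPM in vehicle, with 0 and 2 of 10 at 0. Only 4 of them in HDAC3i and 3 in vehicle reached 20 CPM, and Ms4a7 is also on the monocyte/macrophage list. The part of platelets or border-associated macrophages in the Pf4 ratio was not tested. Microglia-like cells had less Pf4, 33.2 CPM in HDAC3i and 16.1 CPM in vehicle, a ratio of 2.06 (1.61 to 2.65), with UMIs in 10.6% and 8.28% of cells. In both microglia-like clusters Pf4 was higher in the HDAC3i library, at 13.4 CPM against 7.64 CPM in vehicle in the larger one and at 124 CPM against 52.9 CPM in vehicle in the smaller one.

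**Figure D5:**
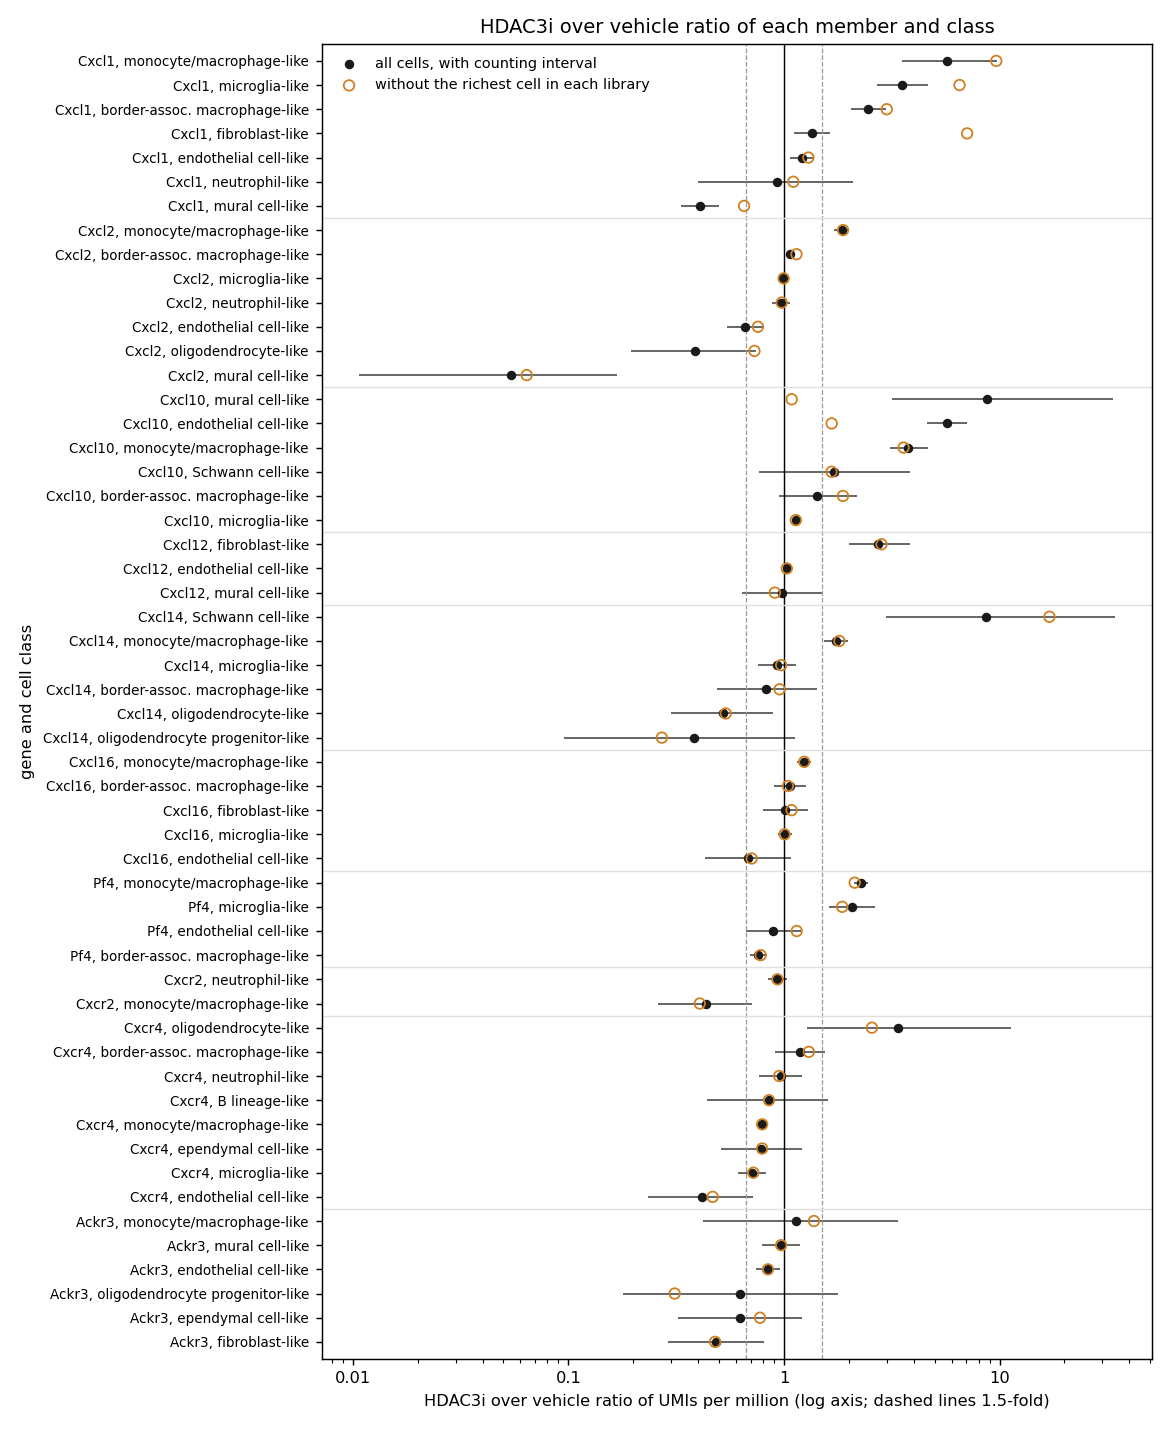
HDAC3i over vehicle ratio of CPM (log axis) for the 54 pairs of gene and class with at least 20 UMIs. Filled points with bars are all cells with 95% counting intervals, open circles leave out the richest cell of each library, solid line a ratio of 1 and dashed lines 1.5-fold; open circles leave the bars mainly for Cxcl1 and Cxcl10, and the points of Cxcl16 and of the receptors in their main classes lie near 1.

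Cxcr2, the receptor by which neutrophils follow Cxcl1 and Cxcl2, was a neutrophil gene in both libraries (chromosome 1, 74153989 to 74161246, plus strand). Neutrophil-like cells held 93.9% of its UMIs in the HDAC3i library and 94.7% in the vehicle library. Their level was 510 CPM in HDAC3i and 547 CPM in vehicle, a ratio of 0.932 (0.839 to 1.03), and 86.4% and 83.6% of cells had a UMI. Its UMIs were spread over many cells, with 14.9% in the richest 5% of cells in HDAC3i and 14.8% in vehicle, where an even spread would give 5%. In oligodendrocyte-like cells it was found in 0 of 394 HDAC3i cells and 1 of 209 vehicle cells.

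The level of Cxcr2 depended on the kind of neutrophil. The cluster rich in mature markers had 1212 CPM in HDAC3i and 1249.7 CPM in vehicle, a ratio of 0.970 (0.860 to 1.09). The cluster rich in immature granule markers had 142 CPM in HDAC3i and 249.9 CPM in vehicle, a ratio of 0.570 (0.453 to 0.712). So the receptor was lower in the HDAC3i library in the immature cluster, while the mature cluster differed little. Whether the stages within a cluster were mixed alike in both libraries was not tested. The mature cluster held 116 of the 176 HDAC3i cells and 108 of the 213 vehicle cells, so the class values mix the clusters differently. Cxcl2 was also higher in the mature cluster, at 1344 CPM in HDAC3i and 1578 CPM in vehicle, against 144 and 149 CPM in the immature one. Of neutrophil-like cells with Cxcl2, 94.8% in HDAC3i and 95.5% in vehicle also had Cxcr2, against 79.8% and 75.0% of those without.

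Monocyte/macrophage-like cells had 29 UMIs of Cxcr2 in the HDAC3i library and 41 in the vehicle library, a ratio of 0.433 (0.259 to 0.714). These stood in 14 HDAC3i cells and 15 vehicle cells, and the richest cell held 9 of the UMIs in HDAC3i and 11 in vehicle. Without the richest cells the ratio was 0.407 (0.219 to 0.741). In the largest cluster it was 0.543 (0.316 to 0.932). Another cluster, of 29 HDAC3i and 41 vehicle cells, had 0 UMIs in HDAC3i and 10 in vehicle. The summed neutrophil markers of the class were 246 CPM in HDAC3i and 1165 CPM in vehicle, with 1 and 0 of 13 at 0, and their part was not tested.

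Cxcr4, the signalling receptor of Cxcl12, was found in many classes (chromosome 1, 128588199 to 128592293, minus strand). Monocyte/macrophage-like cells had 169 CPM in the HDAC3i library and 213 CPM in the vehicle library, a ratio of 0.791 (0.742 to 0.843), with UMIs in 89.0% and 93.8% of cells. Microglia-like cells had 52.0 CPM in HDAC3i and 72.8 CPM in vehicle, a ratio of 0.713 (0.613 to 0.829). Neither reached the fold, although both intervals lay below 1. Both microglia-like clusters were lower in the HDAC3i library, at 39.7 CPM against 55.6 CPM in vehicle in the larger and 109 CPM against 148 CPM in vehicle in the smaller.

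In the other leukocytes compared, the interval of the Cxcr4 ratio held 1. Border-associated macrophage-like cells had 158 CPM in HDAC3i and 134 CPM in vehicle, a ratio of 1.19 (0.910 to 1.56), but with classes from own markers 144.5 and 68.8 CPM, a ratio of 2.10 (1.20 to 3.89). B lineage-like cells had 127 CPM in HDAC3i and 148 CPM in vehicle, a ratio of 0.856 (0.441 to 1.59). Neutrophil-like cells had 110.0 CPM in HDAC3i and 114 CPM in vehicle, a ratio of 0.967 (0.767 to 1.21), with 234 and 233 CPM in the mature cluster. T/NK cell-like cells had 181 CPM (134 to 239) in HDAC3i, from 51 cells, and 75.4 CPM (34.5 to 143) in vehicle, from 14 cells, too few for a comparison. Ependymal cell-like cells, which line the central canal, had 53.5 CPM in HDAC3i and 68.3 CPM in vehicle, a ratio of 0.783 (0.513 to 1.21).

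Endothelial cell-like cells had only 4.59 CPM of Cxcr4 in the HDAC3i library and 11 CPM in the vehicle library, a ratio of 0.416 (0.233 to 0.720), with UMIs in 3.59% and 5.77% of cells. A single vehicle cell with 368 UMIs of monocyte/macrophage markers held 13 of the 41 vehicle UMIs, and the ratio was 0.467 (0.236 to 0.894) without the richest cells. The richest HDAC3i cell held 5 of the 21 HDAC3i UMIs, with 297 UMIs of microglia markers and 239 of monocyte/macrophage markers. The part of these markers was not tested. The larger, venous/capillary cluster had 9 UMIs in HDAC3i and 39 in vehicle, a ratio of 0.205 (0.0875 to 0.431), and the smaller, arterial one 12 and 2. Oligodendrocyte-like cells had a UMI in 1.78% of HDAC3i cells and 2.39% of vehicle cells, with 25 and 5 UMIs, a ratio of 3.39 (1.28 to 11.3). A single HDAC3i cell held 10 of these 25 UMIs, and it carried 424 UMIs of monocyte/macrophage markers. Without the richest cells the ratio was 2.56 (0.815 to 10.6), and the interval held 1. Endothelial shares thus lay above those of oligodendrocyte-like cells, which serve as the background of the gene. By CPM this held in vehicle, at 11 CPM against 1.49 CPM in oligodendrocyte-like cells. In HDAC3i it did not, at 4.59 CPM against 5.05 CPM. Few endothelial cell-like cells with Cxcl12 also had Cxcr4, 4.16% in HDAC3i and 5.36% in vehicle.

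Ackr3, the scavenger receptor of Cxcl12, was highest in cells of vessels (chromosome 1, 90203980 to 90216751, plus strand). Mural cell-like cells had 275 CPM in the HDAC3i library and 284 CPM in the vehicle library, a ratio of 0.967 (0.790 to 1.19), with UMIs in 63.4% and 65.5% of cells. Endothelial cell-like cells had 105 CPM in HDAC3i and 125 CPM in vehicle, a ratio of 0.842 (0.739 to 0.958), with UMIs in 50.7% and 53.5% of cells. Both vascular classes differed by less than 1.5-fold. Fibroblast-like cells had 45.8 CPM in HDAC3i and 94.6 CPM in vehicle, a ratio of 0.484 (0.290 to 0.810), from 34 and 32 UMIs. Ependymal cell-like cells had 20.7 CPM in HDAC3i and 33.2 CPM in vehicle, with a UMI in 23 of 186 and 12 of 74 cells. Oligodendrocyte progenitor-like cells had 14.9 and 23.9 CPM, with a UMI in 3 of 26 and 10 of 49 cells. Neutrophil-like cells, which should lack Ackr3, had it in 0 of 176 HDAC3i cells and 1 of 213 vehicle cells.

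Many endothelial cells held both the ligand and its scavenger. Of endothelial cell-like cells with Cxcl12, 51.8% in HDAC3i and 53.6% in vehicle also had Ackr3, against 43.9% and 53.1% of those without. In fibroblast-like cells, then, Cxcl12 was higher and Ackr3 lower in the HDAC3i library, while in endothelial cell-like cells neither passed the fold. A finer clustering split the fibroblast-like cells into a cluster of 35 HDAC3i and 22 vehicle cells and another of 23 and 5. The part of this mix in the ratios was not tested.

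By class, monocyte/macrophage-like cells had the most of these genes past the fold. There, 5 of 9 measured genes were higher and 1 was lower in the HDAC3i library, with a median log2 ratio of 0.79 against -0.01 for all 10636 genes, of which 4.52% were past the fold. Of these 5, Cxcl2 and Cxcl14 fell short of the fold with classes from own markers. Without the richest 5% of cells, Cxcl14 and Pf4 stayed past the fold, and Cxcl2 and Cxcl10 did not. Cxcl1 and the lower gene, Cxcr2, then had no UMIs left in either library. The count for this class thus rested largely on a small set of cells. Microglia-like cells had 2 of 7 higher and 0 lower, with a median of 0.02 against -0.02 for all genes, of which 3.95% were past it. Endothelial cell-like cells had 1 of 8 higher and 2 lower, against 3.55% of all genes. Mural cell-like cells had 1 of 5 higher and 2 lower, against 5.52%, and border-associated macrophage-like cells 1 of 7 higher and 0 lower, against 7.54%. Neutrophil-like cells had 0 of 4 past the fold in either direction, against 8.99% of all genes.

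The interferon and NF-kappaB inputs of these chemokines were described from lists. Of 15 interferon genes, 5 were higher and 0 lower in the HDAC3i library in monocyte/macrophage-like cells, named here after their values were seen: Ifit3 (ratio 4.93), Rsad2 (3.35), Ifit1 (2.03), Isg15 (1.56) and Irf7 (1.51). In microglia-like cells Rsad2 (2.17) and Ifit1 (1.87) were higher and 0 were lower, and in endothelial cell-like cells Rsad2 alone was higher (2.16). In neutrophil-like cells the list went mainly the other way, with 1 of 14 measured genes higher and 4 lower. In border-associated macrophage-like cells 0 of 15 passed the fold. Of all genes, 4.52% were past it in monocyte/macrophage-like, 3.95% in microglia-like and 3.55% in endothelial cell-like cells. The shares were 8.99% in neutrophil-like and 7.54% in border-associated macrophage-like cells. Outside these classes the directions were mixed. In oligodendrocyte-like cells 4 of 15 were higher and 0 lower, against 3.97% of all genes past the fold, and in ependymal cell-like cells 4 of 10 and 0, against 4.34%. In fibroblast-like cells 1 of 12 was higher and 3 lower, against 9.08%, and in Schwann cell-like cells 0 of 12 and 2, against 5.9%. In oligodendrocyte progenitor-like cells 2 of 9 were higher and 0 lower, against 9.3%, and in B lineage-like cells 0 of 8 and 1, against 10.1%. In mural cell-like cells 1 of 15 was higher and 0 lower, against 5.52%. Isg15, the most abundant of them in microglia-like cells, was at 338 CPM in HDAC3i and 267 CPM in vehicle.

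The NF-kappaB list, which also holds the cytokines interleukin-1 and TNF, had few members past the fold in the main sources of these chemokines. Of them 0 of 17 passed the fold in microglia-like cells, 0 of 16 in monocyte/macrophage-like cells and 0 of 17 in endothelial cell-like cells, which is near the shares of all genes given above. Elsewhere more were lower than higher, 3 of 15 and 0 in oligodendrocyte-like cells, 2 of 15 and 1 in neutrophil-like cells, 2 of 11 and 0 in Schwann cell-like cells and 1 of 12 and 0 in mural cell-like cells, with 0 past it in the remaining classes other than border-associated macrophage-like cells. Of all genes, 3.97% were past it in oligodendrocyte-like, 8.99% in neutrophil-like, 5.9% in Schwann cell-like and 5.52% in mural cell-like cells. In microglia-like cells Tnf was at 963 CPM in each library and Il1a at 1059.7 CPM in HDAC3i and 1118 CPM in vehicle. In border-associated macrophage-like cells 2 of 15 were lower and 0 higher, against 7.54% of all genes past the fold. These were Il1b with a ratio of 0.467 (0.435 to 0.501) and Ptgs2 with 0.499. There, Cxcl2 was close between libraries while Il1b stood at 1237 CPM in HDAC3i and 2651 CPM in vehicle.

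Other lists mostly gave single changes. Of all genes, 3.95% were past the fold in microglia-like, 4.52% in monocyte/macrophage-like and 3.55% in endothelial cell-like cells. Of the other CXC chemokines, Cxcl13 in microglia-like cells had 96 UMIs in HDAC3i and 9 in vehicle, and in monocyte/macrophage-like cells Cxcl3 had 45 and 2 UMIs and Cxcl9 10 and 259 UMIs. Among the other receptors, Ccr1 was lower in the HDAC3i library in neutrophil-like cells, at 263 CPM against 577 CPM in vehicle, a ratio of 0.456. Ackr1, a decoy receptor of venules, was at 148 CPM in HDAC3i and 122 CPM in vehicle in endothelial cell-like cells. Of 16 genes of receptor signalling, 0 passed the fold in monocyte/macrophage-like cells and 1 was lower in microglia-like cells. Of 9 processing genes, 1 was higher and 1 lower in monocyte/macrophage-like cells, and Dpp4, the peptidase that trims Cxcl10 and Cxcl12, was lower in endothelial cell-like cells, at 16.8 CPM in HDAC3i against 35 CPM in vehicle. Of 8 measured Cxcl12 partners in the list, 1 was higher in monocyte/macrophage-like cells and 1 lower in endothelial cell-like cells. Of 14 immediate-early genes, which tissue dissociation also induces, 3 were lower and 0 higher in monocyte/macrophage-like cells and 1 was lower in microglia-like cells. In fibroblast-like cells 4 of 14 were higher and 0 lower, against 9.08% of all genes past the fold, and in mural cell-like cells 2 and 0, against 5.52%. In border-associated macrophage-like cells 1 was higher and 2 lower, against 7.54%, and in Schwann cell-like cells 0 and 6, against 5.9%. The part of the immediate-early genes in the differences of Cxcl1, Cxcl2, Cxcl12 and Cxcl14 in these classes was not tested.

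For the members other than Cxcl1, the genes with the most similar pattern over the 28 class sums of both libraries are given with their Pearson r of log2(CPM + 5), as a description. They were Il1b for Cxcl2 (0.944), Xlr for Cxcl10 (0.822), Emcn for Cxcl12 (0.943) and Wdr81 for Cxcl14 (0.806). For the others they were Rab3il1 for Cxcl16 (0.947), Gm6377 for Pf4 (0.948), Asprv1 for Cxcr2 (0.992), Mapkapk3 for Cxcr4 (0.931) and Jag1 for Ackr3 (0.938). The class sums of 1 library share their depth and free RNA.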

How the data were processed

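Per the file headers, Cell Ranger 3.0.2 made the deposited matrices, whose values are whole-number UMI counts for each gene and barcode. The submitters' processing notes list Cell Ranger, Seurat and mm10. The 10x Genomics 3′ version 3 kit was used per the labels, so counts come from transcript ends. The treatment of reads that match several genes is not stated.

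A barcode was kept with 500 or more genes, 1000 or more UMIs and no more than 15% mitochondrial UMIs, and 448 HDAC3i and 353 vehicle barcodes failed. Scrublet in scanpy 1.11.5 called 21 HDAC3i and 6 vehicle doublets, few enough (0.706% and 0.276%) that doublets remain likely. Cells were clustered on 2000 variable genes without CXC genes, 30 components and 20 neighbours (scikit-learn 1.9.0) by Leiden at resolution 1 (leidenalg 0.10.2, igraph 0.11.9). Clusters were named by marker list: the list's mean log2 ratio over the median cluster, with 5 CPM added, had to reach 2.5, lead by 0.5 and rest on 3 markers of 20 CPM or more. UMIs were summed per library and class. Level intervals are exact Poisson, share intervals Clopper-Pearson and ratio intervals exact conditional binomial. The ratio intervals were run on simulated Poisson counts, the model they assume, which leave out unevenness among cells. A count of 0 leaves room for 3 UMIs.

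All 10 genes are named in every class where values bear on the result; of each list up to 4 of the most abundant members could be named, and others were chosen after their values were seen. As similar genes the most correlated of at least 100 UMIs are given; that of Cxcl1 is not reported here. The genes, lists and tests were chosen with earlier results of these data known. Gene positions are GENCODE M21 on mm10, and promoter windows were found for 9 of 10 genes.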

Additional observations from a re-analysis of the deposited data

Results flagged for a closer look

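For 4 genes the HDAC3i over vehicle ratio was past the fold in opposite directions in a pair of classes, and the difference between the classes was not tested. The log2 ratio of Cxcl1 was 2.51 in monocyte/macrophage-like cells and -1.29 in mural cell-like cells. That of Cxcl2 was 0.89 in monocyte/macrophage-like cells and -4.21 in mural cell-like cells, the latter from 3 HDAC3i UMIs and 45 vehicle UMIs. That of Cxcl14 was 3.11 in Schwann cell-like cells and -0.95 in oligodendrocyte-like cells. That of Cxcr4 was 1.76 in oligodendrocyte-like cells and -1.27 in endothelial cell-like cells.

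Barcodes that failed the cell filter also held these genes above the 3 counts that a count of 0 allows, 9 of the 10 genes in the HDAC3i library and 10 in the vehicle library. The 448 failed HDAC3i barcodes held 720011 UMIs and the 353 failed vehicle barcodes 586124 UMIs. Cxcl2 was at 95.8 CPM in the failed HDAC3i barcodes and 191 CPM in the failed vehicle barcodes. Pf4 had 68 UMIs in the HDAC3i and 11 in the vehicle ones, the opposite order to Cxcl14, with 42 and 68 UMIs.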

How the results depend on the processing

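Among pairs with at least 20 UMIs under the setting, the 21 past the fold became 10 when cells were thinned to 2000 UMIs, 8 without the richest 5% of cells and 12 when at least 100 UMIs were asked for. Other settings gave 17 to 26, among them 18 without the richest cell of each library, a setting chosen after seeing the data. Of the 21 pairs, whatever UMIs they kept, 11 stayed past the fold in the same direction when thinned, 17 stayed so without the richest cell and 6 without the richest 5% of cells. The genes with the same highest class in both libraries numbered 7 to 9. Log2 ratios changed sign for Cxcl1 in mural cell-like cells (0.40 without the richest 5% of cells), Cxcl10 in monocyte/macrophage-like cells (-0.20, same setting), Cxcl2 in endothelial cell-like cells (0.40 thinned and 0.0015 with each cell weighted alike), and, thinned, Cxcl14 (0.35) and Cxcr4 (-0.97) in oligodendrocyte-like cells. With the largest cluster of the class alone, a setting chosen after seeing the data, they also did for Cxcl10 in mural cell-like cells (-0.92) and Cxcr4 in oligodendrocyte-like cells (-1.48), both on few UMIs. Pf4 in endothelial cell-like cells, not past the fold, had a ratio of 0.892 over all cells, 1.15 without the richest cell and 1.79 without the richest 5% of cells. The cause was not tested. At Leiden resolution 2 the border-associated macrophage-like cluster took no name and gave no value. Of the 30 similar genes, 7 were also found by Spearman rank and 21 with 1 CPM added. No paired analysis was possible because each group has 1 library.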
